A study of Mus musculus with 10 samples.

Results

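The miR-26 family is a set of microRNAs (miRNAs, short RNAs that pair with target mRNAs and lower their output) carried in introns of the Ctdsp phosphatase genes. Its members were taken by name from a table of 1340 mature miRNAs: mmu-miR-26a-5p, mmu-miR-26b-5p and mmu-miR-26b-3p, so 3 of 1340 (the species prefix mmu is left out below). All 3 were among the 588 miRNAs with a mean signal of at least 10 that were tested. Small RNA had been sequenced from the RPE/choroid/sclera (pigment epithelium, vascular coat and fibrous coat of the eye) of C57BL/6J mice, wild type and at postnatal day 34. Each animal wore a -20 dioptre lens over 1 eye for 10 days from postnatal day 24, a treatment that induces myopia, and the contralateral eye had no lens. The labels name left and right eyes but not which of them wore the lens, so the groups are 5 left and 5 right eyes, with the title numbers 61, 64, 65, 66 and 68 on both sides. Each group therefore may mix lens and untreated eyes, and an effect of the lens would not show if the treated side was not the same throughout. Nothing in the labels says whether tissue was pooled, and p-values measure the spread between these libraries.

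The miR-26 genes lie in genes for small C-terminal domain phosphatases, enzymes that remove phosphates from RNA polymerase II and from the retinoblastoma protein. The miRNAs are transcribed with these hosts, and their 5p arms are known to repress cyclins, cyclin-dependent kinases and the histone methyltransferase Ezh2, and so to slow proliferation. In smooth muscle, a component of choroidal vessels, miR-26a is known as a repressor of the BMP mediator Smad1. An miRNA finds its targets mainly through its seed, bases 2 to 8, so members with the same seed share most predicted targets.

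The mature sequences show which members can be told apart and which share targets. They are printed 5′ to 3′ from RefSeq (GRCm38.p6), with the seed in capitals. The 5p arms carry the same seed, and no other miRNA of the table matched to RefSeq carries it.
miR-26a-5p: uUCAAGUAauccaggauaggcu
miR-26b-5p: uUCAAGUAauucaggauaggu
miR-26b-3p: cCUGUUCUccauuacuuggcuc
miR-26a-2-3p: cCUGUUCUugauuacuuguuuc
miR-26a-1-3p: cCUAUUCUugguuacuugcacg
Over the 21 positions that both hold, miR-26a-5p and miR-26b-5p differ at 2, C11U and C21U, counted from 1 at the 5′ end with the base of miR-26a-5p first. Both differences lie outside the seed. The arm miR-26b-3p has the seed of miR-26a-2-3p and differs from it at 4 of 22 positions. From miR-26a-1-3p it differs at 8 of 22, of which G4A falls within the seed. The only other miRNA of the table found with the seed of miR-26b-3p was miR-6932-3p, at a mean signal of 3.41.

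The hairpins show where the reads of miR-26a-5p can come from. Capitals mark the mature arms, 5p first.
Mir26a-1: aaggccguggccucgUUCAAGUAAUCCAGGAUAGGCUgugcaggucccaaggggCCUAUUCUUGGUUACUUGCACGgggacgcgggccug
Mir26a-2: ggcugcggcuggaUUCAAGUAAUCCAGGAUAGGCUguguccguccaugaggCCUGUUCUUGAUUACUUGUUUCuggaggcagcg
Mir26b: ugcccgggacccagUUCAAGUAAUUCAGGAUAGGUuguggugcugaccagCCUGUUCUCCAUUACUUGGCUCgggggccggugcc
Mir26a-1 (chr9:119031796-119031885, plus strand) lies in intron 5 of 7 of Ctdspl, and Mir26a-2 (chr10:126995530-126995613, plus strand) in intron 5 of 7 of Ctdsp2. Mir26b (chr1:74394310-74394394, plus strand) lies in intron 4 of 6 of Ctdsp1. Introns are counted in the longest coding transcript of GENCODE M21 that spans the hairpin, and no coding transcript spanning a hairpin had an exon there. All 3 hairpins have the strand of their host. The introns measure 3283, 1946 and 564 bases in the same order. Mir26a-1 and Mir26a-2 give the same 5p sequence, so reads of miR-26a-5p from Ctdspl and from Ctdsp2 cannot be told apart, and the table has a single row for them. The 3p arms differ between the loci.

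The values are a signal normalised by the authors. At each of the 59 highest ranks, and at 234 ranks in all, the 10 libraries hold exactly the same value. The value of an abundant miRNA is therefore that of its rank, a step, and it changes only when it changes places with another miRNA. The depth of each library is unknown, so no counting interval is given. The 10 libraries were all led by the pigment epithelium miRNA miR-204-5p, and all 40 cell type marker miRNAs from 8 lists were above 0 in every library. Summed retina and neuron markers stood at 264 to 474 k in left eyes (k for 1000 units of signal) and at 190.1 to 365 k in 4 right eyes, while right eye 68 held 1332 k. In right eye 68 the photoreceptor miRNA miR-182-5p stood at rank 2 and above miR-26a-5p, which it did in no other library. In bulk tissue, fewer cells of a type and less RNA per cell cannot be told apart.

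miR-26a-5p was among the most abundant miRNAs of this tissue, at rank 3, 4 or 5 in every library. Its signal was 939.9 k in left eyes 61, 64 and 66, 885 k in left eye 68 and 788 k in left eye 65. In right eyes it was 939.9 k in numbers 64, 65 and 66, 885 k in number 61 and, at its lowest, 788 k in number 68. These are 3 distinct values, the steps of rank 3 in 6 libraries, rank 4 in 2 and rank 5 in 2. Both sides hold the same set of values, with a mean of 899 ± 66.2 k each (SD, n = 5), and they overlap fully. The member took between 6.63% and 7.91% of the signal of a library.

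Its place in the order of abundance was shared with its neighbours. By mean signal miR-26a-5p stood at place 4, after miR-22-3p (1013 ± 148 k, SD, n = 10) and let-7a-5p (942 ± 196 k), and before miR-181a-5p (803 ± 73.7 k) and the smooth muscle miRNA miR-143-3p (794 ± 78.5 k). It was above miR-22-3p in 3 of 10 libraries, above let-7a-5p in 5, above miR-181a-5p in 8 and above miR-143-3p in 9. The mean differences in log2(signal + 1) from miR-22-3p, let-7a-5p and miR-181a-5p were -0.16, -0.04 and 0.16, each smaller than its SD over the libraries (0.25, 0.28 and 0.21). From miR-143-3p the mean difference was 0.18 with an SD of 0.15.

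Both libraries with miR-26a-5p at rank 5 had the highest summed retina and neuron markers of their side. Left eye 65 held 474 k of these markers, where the other left eyes held 264 to 294 k, and right eye 68 held 1332 k. In right eye 68 a retina marker, miR-182-5p, was among the 4 miRNAs above miR-26a-5p. In left eye 65 none was, and miR-204-5p, miR-22-3p, let-7a-5p and miR-181a-5p stood above it. The part of retinal tissue in these ranks was not tested.

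miR-26b-5p, which differs from miR-26a-5p outside the seed, was the less abundant 5p arm and the one that varied more. In left eyes its signal was 117 k in number 61, 141 k in 64, 154 k in 65, 126 k in 66 and 179 k in 68. In right eyes it was 226 k in number 61, 148 k in 64, 179 k in 65, 141 k in 66 and 179 k in 68. Right eye 61 was the highest library and left eye 61 the lowest, and the remaining values of both sides overlapped. Left eyes averaged 143 ± 24.7 k and right eyes 175 ± 33.5 k (SD, n = 5 each). The ranks ran from 11 to 19, all of them steps with one value in all libraries.

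**Figure D1:**
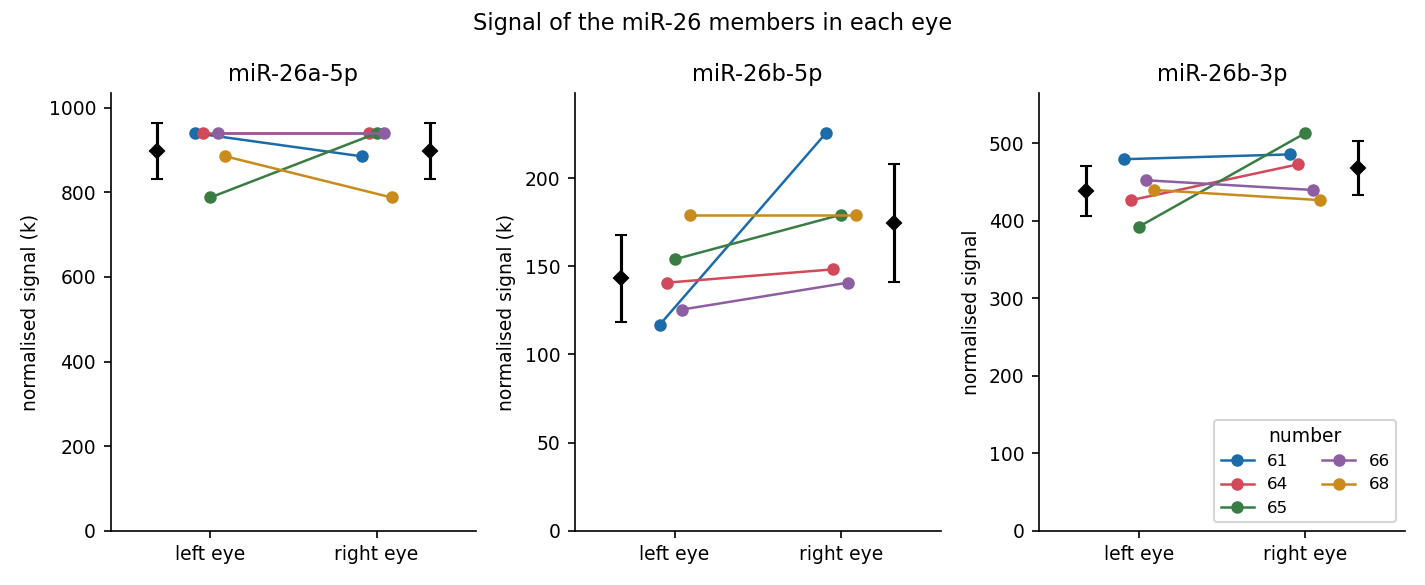
Normalised signal of miR-26a-5p and miR-26b-5p (in k) and of miR-26b-3p (single units) in left and right eyes. Coloured points are libraries, lines join the eyes of a number, and black diamonds with bars are the mean and SD of 5 eyes; within the miR-26b-5p panel the line of number 61, from 117 to 226 k, is the steepest.

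In the order of abundance miR-26b-5p stood at place 14 by mean signal, at 159 ± 32.3 k (SD, n = 10). Above it were let-7g-5p (209 ± 27.5 k) and the endothelial miR-126a-5p (176 ± 34.6 k), and below it miR-125b-5p (154 ± 13.5 k) and miR-191-5p (136 ± 11.9 k). It exceeded let-7g-5p in 1 of 10 libraries, right eye 61, and miR-126a-5p in 2, miR-125b-5p in 5 and miR-191-5p in 7. Only the mean difference from let-7g-5p, -0.41 on the log2 scale, was larger than its SD over libraries (0.27). Against miR-126a-5p, miR-125b-5p and miR-191-5p the mean differences were -0.15, 0.02 and 0.21, within SDs of 0.34, 0.35 and 0.36.

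**Figure D2:**
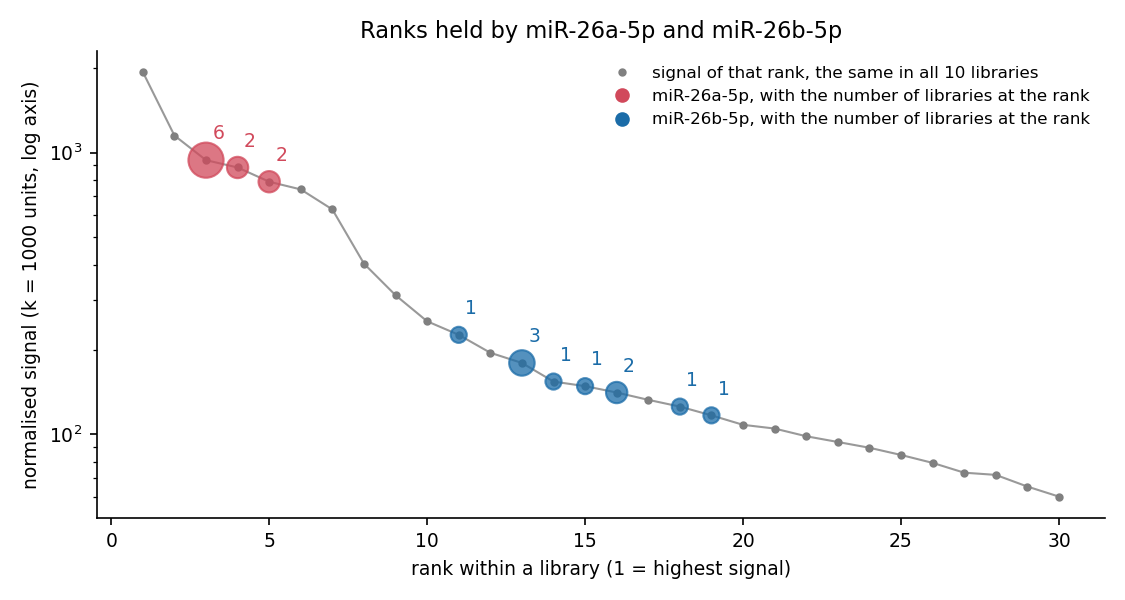
Signal of the 30 highest ranks (in k, log axis) against rank, which is the same in all 10 libraries, with the ranks held by miR-26a-5p and miR-26b-5p. Digits give the number of libraries at a rank: miR-26a-5p holds ranks 3, 4 and 5 in 6, 2 and 2 libraries, and miR-26b-5p is spread over ranks 11 to 19.

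Of the arms with the shared 5p seed, miR-26a-5p was the higher in all 10 libraries. The ratio of miR-26a-5p to miR-26b-5p was lowest in right eye 61 (3.92) and highest in left eye 61 (8.04), and it averaged 6.45 ± 1.39 over the left and 5.31 ± 1.19 over the right eyes (SD, n = 5 each). It is a ratio of rank steps and not of reads. Together the arms gave 8.77 ± 0.476% of the signal of left eyes and 9.04 ± 0.516% of that of right eyes. The lowest sums, 942 k in left eye 65 and 967 k in right eye 68, were those of the libraries with miR-26a-5p at rank 5.

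miR-26b-3p, the other arm of the Mir26b hairpin, was present at a low and even level. In left eyes its signal was 479 in number 61, 427 in 64, 392 in 65, 452 in 66 and 439.6 in 68. In right eyes it was 486 in number 61, 473 in 64, 513 in 65, 439.6 in 66 and 427 in 68. The sides overlapped, the lowest value being left eye 65 and the highest right eye 65. Left eyes averaged 438 ± 32.2 and right eyes 467 ± 34.9 (SD, n = 5 each), while ranks ran from 205 to 220.

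The 3p arms of the miR-26a hairpins, which are not members but carry the locus in their sequence, stood lower. miR-26a-2-3p, from the Ctdsp2 intron, had a signal of 23.6 to 46.9, with left eye 66 the highest and the other 9 libraries at 30.9 or below. miR-26a-1-3p, from the Ctdspl intron, had 1.42 to 12.0 and a mean of 6.40, under the minimum for the test. miR-26a-2-3p was the higher in all 10 libraries, by 1.96-fold in right eye 64 to 16.9-fold in left eye 65, and the ranges of the arms did not overlap. These levels are of the 3p arms alone and do not give the shares of Ctdspl and Ctdsp2 in miR-26a-5p.

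**Figure D3:**
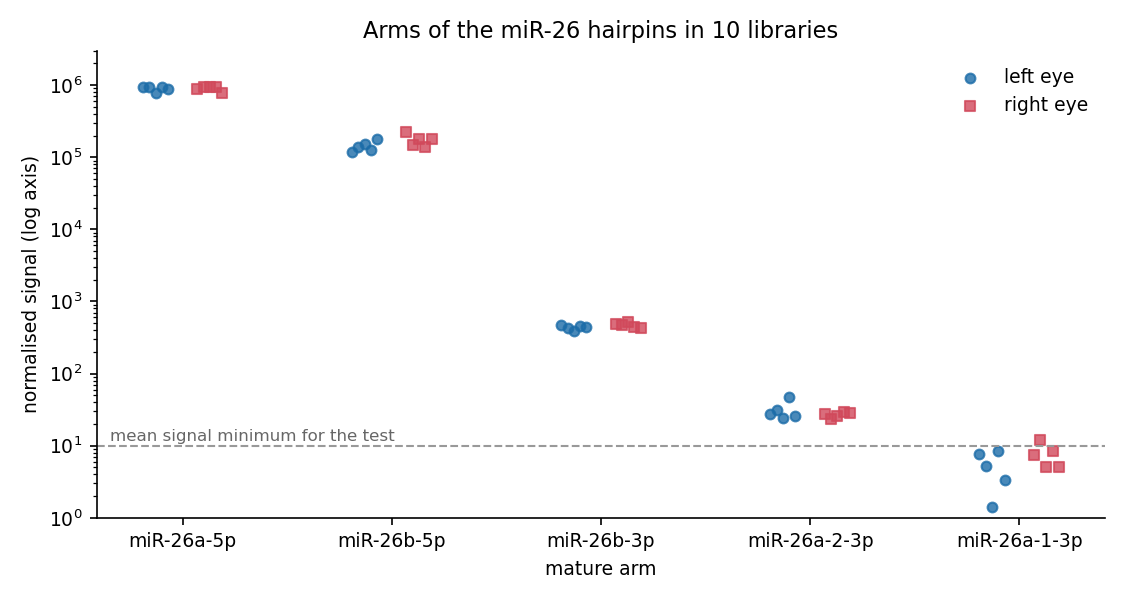
Normalised signal (log axis) of the 5 mature arms of the miR-26 hairpins, with 5 left eyes as circles and 5 right eyes as squares; the dashed line is the mean signal of 10 required for the test. The order of the arms is the same in every library, from miR-26a-5p at 788 k or more to miR-26a-1-3p at 12.0 or less.

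The members differed in how much they varied among the 10 libraries. The SD of log2(signal + 1) was 0.10 for miR-26a-5p, 0.11 for miR-26b-3p and 0.28 for miR-26b-5p, where the median of all 588 miRNAs tested was 0.34. Only 14 of the 588 varied less than miR-26a-5p and 17 less than miR-26b-3p, while 222 varied less than miR-26b-5p. Among the 20 miRNAs nearest in mean signal, none varied less than miR-26b-3p, and their median SD was 0.29. Over the libraries miR-26b-3p moved through 15 ranks, against a median of 41.5 for these 20. For miR-26b-5p, 16 of the 20 nearest miRNAs varied less, with a median SD of 0.17. For miR-26a-5p the set was the 3 miRNAs above it in mean signal and the 10 below. Of these 13 only miR-204-5p, fixed at rank 1, varied less, and their median SD was 0.23. The SD of miR-26a-5p depends on the size of the steps between ranks 3 and 5. Over the libraries miR-26a-5p moved through 2 ranks, against a median of 3 for these 13.

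For each member the widest gap between same-numbered eyes exceeded the span of the number means. For miR-26b-5p the number means spanned 0.43 on the log2 scale, from number 66 to number 68, and the widest gap within a number was 0.95, in number 61. For miR-26a-5p the span was 0.17 and the widest gap 0.25, and for miR-26b-3p 0.16 and 0.39, both gaps in number 65. The median gap within a number was smaller than that span in each case, at 0.17, 0.09 and 0.04 in the same order. A number mean averages both eyes, which narrows its spread, while a gap is a difference between eyes, which widens it. Unrelated eyes would tend to give the same order, so these values do not show whether eyes of a number are alike. No test was made of these spans.

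Whether the members differ between right and left eyes was asked in a limma fit over all 588 miRNAs, with the title number as a block (two-sided, adjusted by Benjamini-Hochberg). None of the 3 members passed an adjusted p of 0.05, nor did any other miRNA (0% of 588), and 13 of the 588 (2.21%) had an unadjusted p under 0.05, none of them a member. For miR-26a-5p the difference in log2(signal + 1), right minus left, was 0.00 with an SE of 0.07 and a 95% interval from -0.17 to 0.17 (adjusted p = 1 in limma). It was higher in the right eye in 1 pair, lower in 2 and tied in 2. For miR-26b-3p the difference was 0.09 with an SE of 0.10 and an interval from -0.14 to 0.33 (adjusted p = 0.967 in limma), with the right eye higher in 3 pairs and lower in 2.

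The difference for miR-26b-5p was 0.28 with an SE of 0.14, an interval from -0.05 to 0.61, and adjusted p = 0.967 in limma (unadjusted p = 0.0816). Its right eye was higher in 4 pairs, tied in number 68 and lower in none. In 22 of the 588 miRNAs (3.74%) the right eye was higher or equal in all 5 pairs and higher in at least 1. The pair differences were 0.95 in number 61, 0.22 in 65, 0.17 in 66 and 0.08 in 64. Number 61 carried most of the mean: without it the difference was 0.12 with adjusted p = 0.967 in limma, over a range of 0.839 to 1 in all alternatives. In number 61 the change was from rank 19 to rank 11, and of the 30 most abundant miRNAs, a set looked at after the values were seen, none differed more between these 2 eyes. Of the 588 miRNAs, 39 did. Between the left and the right eye of number 61, the summed markers went from 290 to 210.2 k for retina and neuron and from 120.2 to 165 k for surface epithelium. In numbers 64, 65 and 66, also higher on the right for miR-26b-5p, surface epithelium fell from 254, 166 and 210 k to 214, 85.0 and 32.9 k. Retina and neuron rose in number 64, from 294 to 365 k, and fell in 65 and 66. The part of these markers in the difference was not tested.

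**Figure D4:**
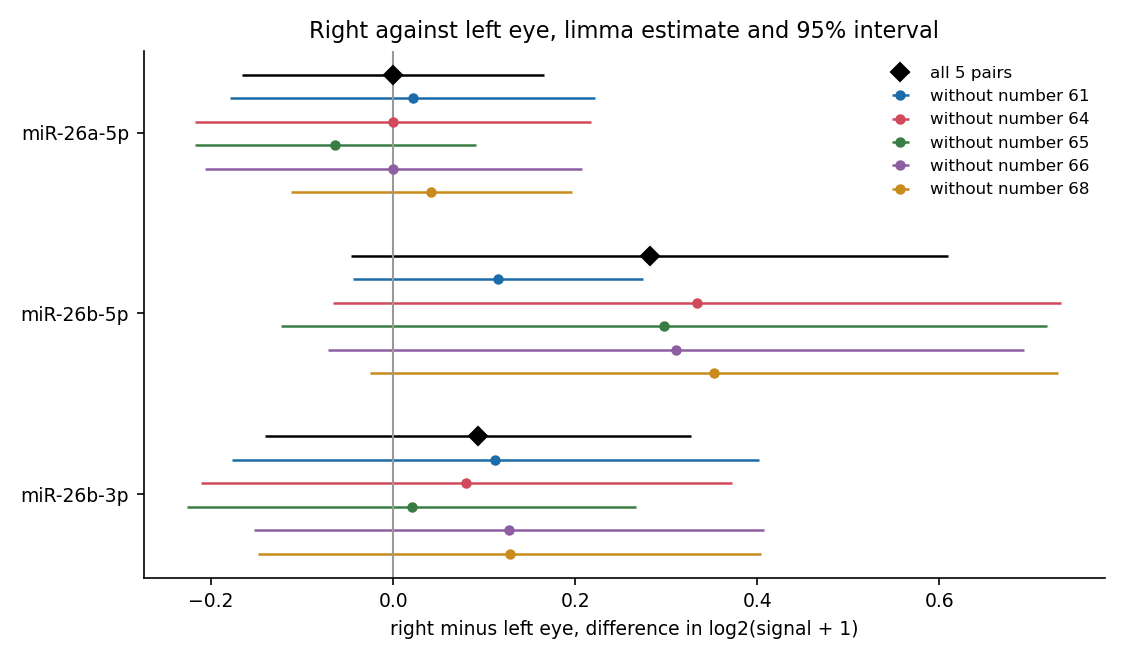
Difference in log2(signal + 1), right minus left eye, with its 95% interval from limma, for the 3 members with all 5 pairs (black diamonds) and with each number left out (coloured points). All intervals include 0, and the estimate for miR-26b-5p falls from 0.28 to 0.12 without number 61.

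The arms of the Mir26b hairpin were compared next, since in most hairpins 1 arm is loaded into the silencing complex and the other is degraded. The signal of miR-26b-5p was 244 to 465 times that of miR-26b-3p, the extremes being the left and the right eye of number 61. This too is not a ratio of reads, since the 5p values are rank steps, as are 3p values such as 439.6 at rank 213. The mean log2 ratio was 8.43 over the 10 libraries. It was set against 158 hairpins whose arms were both kept and have names that differ only in 5p or 3p. Hairpins with a locus number in the name of 1 arm, such as miR-26a-2-3p, are not among them. Of the 158, 9 had a larger excess of the 5p arm. In either direction 16 of the 158 were more unequal, and the median of their absolute log2 ratio was 3.68. The miR-26a hairpins were thus not ranked, although miR-26a-5p had 16965 to 31007 times the summed signal of its 3p arms. The ratio was 8.34 in left and 8.53 in right eyes, a difference of 0.19 with an SE of 0.18 and a 95% interval from -0.24 to 0.62 (adjusted p = 0.939 in limma over the 158 hairpins). None of the 158 passed (0%), and 3 had an unadjusted p under 0.05. Without number 61 the difference was 0.003, at adjusted p = 0.989 in limma, over a range of 0.840 to 0.997 in all alternatives.

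**Figure D5:**
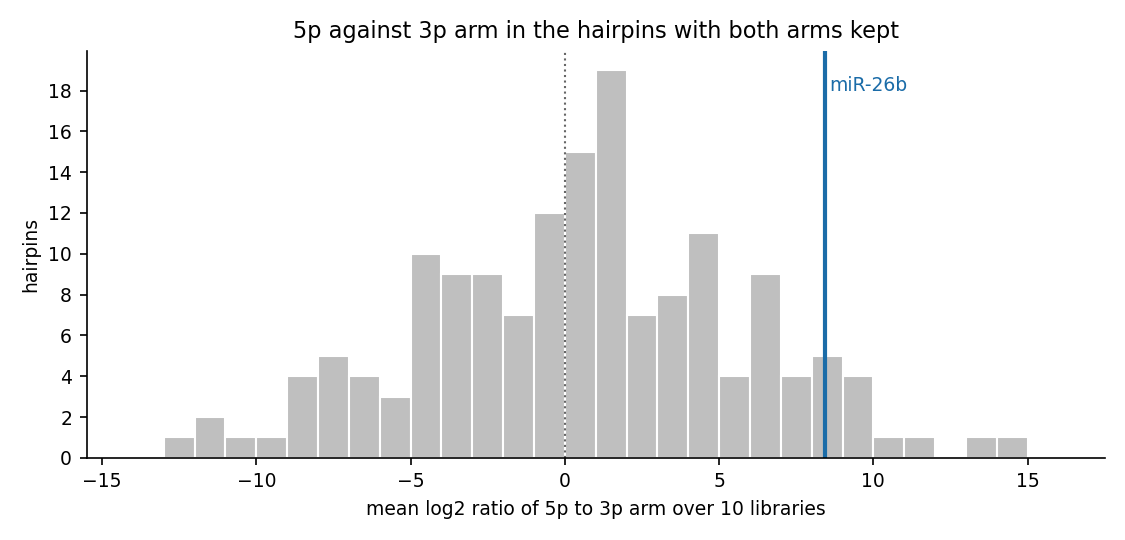
Number of hairpins by their mean log2 ratio of arms (5p over 3p) in 10 libraries, in steps of 1, for 158 hairpins with arm names that differ only in 5p or 3p. The vertical line marks miR-26b at 8.43, toward the end where the 5p arm leads.

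In these libraries the correlation was negative between the 5p arms with the shared seed and positive between miR-26a-5p and miR-26b-3p. Over the 10 libraries, which share 5 numbers and one set of rank steps, the Pearson correlation of log2(signal + 1) was -0.41 between miR-26a-5p and miR-26b-5p, 0.17 between the arms of Mir26b, and 0.63 between miR-26a-5p and miR-26b-3p. Spearman's rho was -0.64, 0.11 and 0.48 in the same order. Of the miRNAs tested, 504 had a higher Pearson correlation with miR-26a-5p than miR-26b-5p had, and 32 a higher one than miR-26b-3p had. These are given as descriptions with no p.

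The miRNAs most like each member were taken by the highest Pearson correlation over the 10 libraries. For miR-26b-5p they were miR-148b-5p (0.82), let-7g-3p (0.72) and miR-29a-5p (0.69), with mean signals of 287, 23.5 and 142. For miR-26b-3p they were miR-1839-5p (0.77), at a mean signal of 5881, miR-7226-3p (0.74) and miR-425-3p (0.73). For miR-26a-5p they were miR-7668-3p (0.91), miR-1668 (0.83) and miR-1941-5p (0.83), all with mean signals between 13.3 and 19.7. As miR-26a-5p takes only 3 values, its correlations compare 3 steps. Each of these miRNAs is among the 3 most correlated of all those tested, over only 10 libraries.

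Other miRNAs of the same known roles were described from 4 lists. Of 8 miRNAs known to repress Ezh2, 6 were tested, of which 4 had a higher and 1 a lower mean log2 value in right eyes, while miR-26a-5p was equal on both sides. Their median difference was 0.03, where that of all 588 was 0.02. The list was led by let-7a-5p, whose signal averaged 982 ± 162 k over the left and 901 ± 236 k over the right eyes (SD, n = 5 each), a difference of -0.15. miR-101a-3p, another repressor of Ezh2, had 41.7 ± 8.89 k and 46.7 ± 12.7 k, a difference of 0.14. Of 19 miRNAs known to restrain the cell cycle, 18 were tested, with 9 higher and 8 lower in right eyes and a median difference of 0.006. Besides the miR-26 and let-7a-5p values above, let-7c-5p was its most abundant member, with a difference of -0.21.

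The smooth muscle, vessel wall, BMP and TGF-beta list had 13 tested members, 5 higher and 7 lower in right eyes, with a median difference of -0.004. In it miR-143-3p, which marks contractile smooth muscle, had a difference of 0.02, and the endothelial arms miR-126a-5p and miR-126a-3p had 0.17 and 0.06. Of 28 miRNAs transcribed with a protein-coding host, as the miR-26 members are, 27 were tested, with 15 higher and 10 lower and a median difference of 0.01. Besides the miR-26 members, its most abundant were miR-204-5p of the Trpm3 intron, fixed at rank 1, and miR-27b-3p, with a difference of -0.13. None of the members of the 4 lists passed in limma. With an unadjusted p under the threshold there was 1, miR-30c-5p of the host list (difference 0.18, unadjusted p = 0.0274 and adjusted p = 0.967 in limma), named after its value was seen.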

How the data were processed

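The TruSeq small RNA kit was used for the libraries, per the labels' protocols; the extract protocol speaks of retinae, while the tissue label, followed here, names the RPE/choroid/sclera. Per the submitters' processing notes, which name no version, the authors used Bowtie, Partek and GRCm38 (mm10). The deposited values are a normalised signal (normalisation method: not given in the sources used here). Library sums lie between 11878152 and 11879036, and only 7.31% of values above 0 are whole within 0.001, so reads were not recovered and no count model was used. Equal steps limit what a difference can show.

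Values were analysed as log2(signal + 1), a scale that understates changes of low signals, for miRNAs with a mean signal of at least 10 (99.988% of the signal). Right and left eyes were compared with limma 3.58.1 (R 4.3.3), with a mean-variance trend and the title number as a block, since the treatment protocol compares contralateral eyes. The labels do not state that a number is an animal. As a check of the pairing, eyes with the same number correlated, after the mean of each side was removed, at 0.12, 0.45, 0.01, -0.13 and 0.28. Only in numbers 64 and 68 was the left eye most like the right eye of its own number, so the check does not establish the pairing. Arm ratios were fitted without a trend. The fit was tested on simulated data.

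Members, lists and tests were chosen with earlier results of these data known. Named miRNAs were the members, the other miR-26 arms, 3 most correlated miRNAs per member, neighbours in abundance of the 5p arms and up to 4 list members by mean signal. Alternatives were no block, a pseudocount of 10, no filter, median centring, no trend and each number left out. Coordinates and sequences are from RefSeq (GRCm38.p6), where 1135 of 1340 names matched; the deposited stop lies 1 past the RefSeq end in all 1133 with the same start. Introns are from GENCODE M21.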

Additional observations from a re-analysis of the deposited data

Results flagged for a closer look

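Over 20 checks of the miR-26 arms, their ratios and the summed 5p arms, each within the 5 eyes of a side and on the log2 scale, 2 values lay far from the other 4. Chance gives about 1 in 20 for independent values, and here many values are tied rank steps. Both were sums of miR-26a-5p and miR-26b-5p that lay below the rest of their side: 942.02 k in left eye 65, where the other left eyes held 1057 to 1081 k, and 967.319 k in right eye 68, where the other right eyes held 1081 to 1119 k. In both libraries miR-26a-5p stood at rank 5 (788 k), and both had the highest summed retina and neuron markers of their side, 474 k in left eye 65 and 1332 k in right eye 68. With these markers left out of the ranking, miR-26a-5p stayed at rank 5 in left eye 65 and stood at rank 4 in right eye 68. Left eye 65 also had the highest RPE and melanocyte sum of its side (1990 k), where the lowest left eye held 1969 k. Most of that sum is miR-204-5p, which had the same value (1932 k) in every library, so the sum can move little. Right eye 68 had the lowest erythroid sum of its side (26.5 k). The part of any of the 8 marker lists in these values was not tested.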

How the results depend on the processing

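The 3 members stayed short of the threshold under all 11 alternatives, 1 of them chosen after seeing the data (no replicate block, without right eye 68). The difference between right and left eyes ran from 0.12 to 0.35 for miR-26b-5p and from 0.02 to 0.13 for miR-26b-3p. For miR-26a-5p it ran from -0.06 without number 65 to 0.05 in the alternative just named, on both sides of its value of 0. Without the replicate block the differences were 0.00, 0.28 and 0.09 for miR-26a-5p, miR-26b-5p and miR-26b-3p, with adjusted p of 0.997 or more in limma; the block changed no call. No miRNA was called under any of the 11 alternatives in limma, with 6 to 49 at an unadjusted p under 0.05. Among hairpins the count called was 0 to 1 with each number left out. The 1 call came without number 61 (adjusted p = 0.0397, against 0.439 to 0.997 for the lowest in the other alternatives) and was not miR-26b; the cause was not tested. The difference in the arm ratio of miR-26b ran from 0.003 to 0.28. Mean signals and the ratio of the 5p arms moved by less than 1 SD in every alternative. Unknown depth and rank steps limit the precision of all these values.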
